A study of Mus musculus with 4 samples.

Results

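The genes described here encode proteins that make, inactivate or sense prostaglandins. The tissue was mouse seminal vesicle, and the genes were Ptgs1, Ptgs2, Ptgds, Ptges, Ptgis, Tbxas1, Hpgd, Ptger1, Ptger3 and Ptger4. They were chosen by name, as every probe set whose platform annotation gives 1 of these 10 symbols. The annotation named 13 probe sets for 9 of the genes, out of 12422 probe sets and 8251 genes in all, and Ptgs1 was not analysed here. The samples were 4 arrays of seminal vesicle RNA, 1 for each of 4 mice of the C57Bl/6J strain, wild type at Nkx3.1 (Nkx3.1 +/+) and 15 months old. The glands had been snap frozen, and their RNA was hybridised to Affymetrix Mu74AV2 GeneChips. They form a single group in a series on NKX3.1 and prostate differentiation, so no genotype, age, treatment or tissue was compared. The mice are numbered 1 to 4 as names only, and the labels do not state litter or hybridisation batch. All values are on the log2 scale and were made with RMA, a method that corrects each array for background, gives the arrays the same distribution of intensities and combines the probes of a set into 1 value.

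Prostaglandins are lipid signals made from arachidonic acid, which phospholipases free from membranes. Cyclooxygenases (Ptgs1 and the inducible Ptgs2) turn it into prostaglandin H2, and terminal synthases then make prostaglandin D2, E2, prostacyclin or thromboxane. The products leave the cell and act on G protein-coupled receptors, and the dehydrogenase Hpgd inactivates some of them. The seminal vesicle is the classical organ of this pathway, since the sheep gland served as the source from which cyclooxygenase was purified, and human semen is rich in E-type prostaglandins.

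The tissue label was checked against markers. All 8 measured smooth muscle genes and 9 of 10 luminal epithelial and secretory genes exceeded the background range on every array, and the secretory genes Svs2, Svs4 and Svs5 had means of 12.53, 12.99 and 13.09. The limit of this range was the 90th percentile, taken array by array, of 88 probe sets whose 73 genes belong to other organs such as retina, liver, pancreas and brain, and it came to 6.11, 6.06, 6.08 and 6.18 in mice 1 to 4. The arrays resembled each other, with 0.992 to 0.994 as Pearson's r for the 6 pairs, computed across probe sets that are no independent replicates.

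Of the 9 measured prostaglandin genes, 3 exceeded the background range in all 4 mice: the prostaglandin D synthase gene Ptgds, the inactivating dehydrogenase gene Hpgd and the EP1 receptor gene Ptger1. By probe set this was 4 of 13, or 30.8%, against 23.9% of all probe sets, and by gene 33.3% against 29.2% of all genes, so the share was close to that of the array as a whole. The cyclooxygenase gene Ptgs2, the prostaglandin E synthase gene Ptges, the prostacyclin synthase gene Ptgis, the thromboxane synthase gene Tbxas1 and the E receptor genes Ptger3 and Ptger4 exceeded the limit in 0 of 4 mice. A probe set under the limit has only an upper bound on its signal, and a value there does not show that the gene was silent. No gene is ranked above another by level, since probes differ in how strongly they bind.

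**Figure D1:**
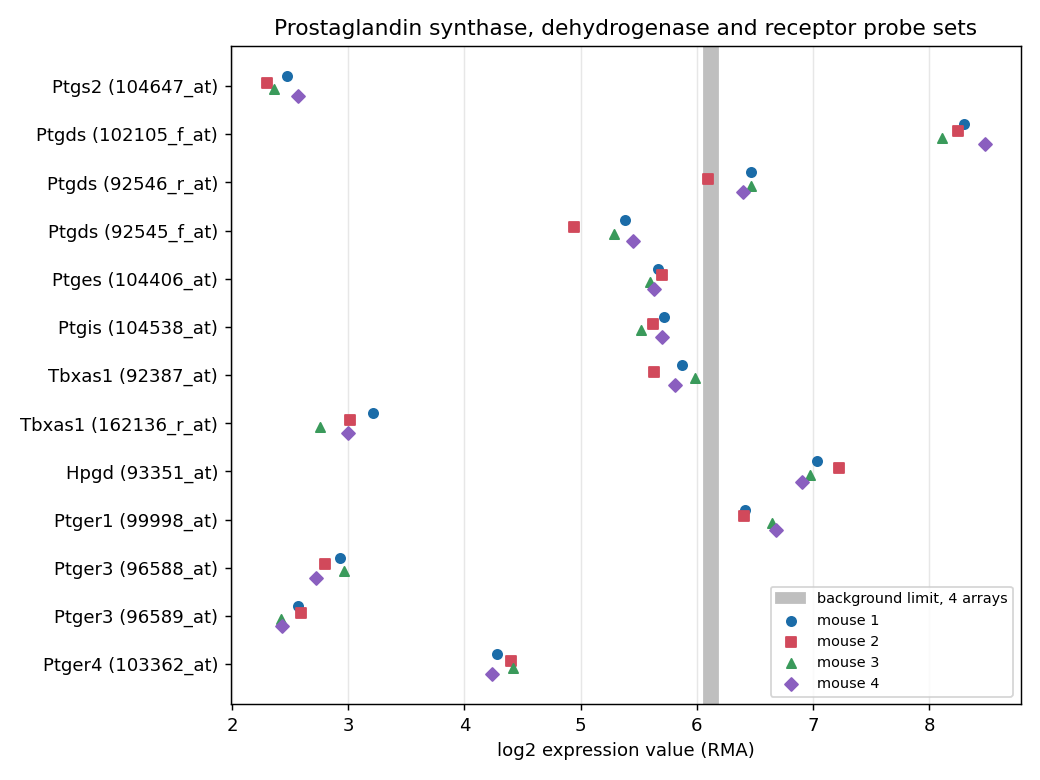
Log2 expression value (horizontal axis) of each of the 13 probe sets in each of 4 wild-type mice, with 1 symbol per mouse and the grey band spanning the 4 arrays' background limits (6.06 to 6.18). The points of Hpgd, Ptger1 and the brightest Ptgds set lie right of the band, a second Ptgds set reaches into it in mouse 2, and the other 9 sets lie left of it in every mouse.

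The cyclooxygenase step was represented by Ptgs2 alone, the isoform that inflammatory and mechanical stimuli induce. Its probe set 104647_at had 2.47, 2.30, 2.36 and 2.56 in mice 1 to 4, a mean of 2.42 ± 0.12 (SD, n = 4). The 4 values stood 3.62 to 3.77 log2 units under the limits of their arrays, and the highest and lowest mouse differed by 0.27.

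Ptgds encodes lipocalin-type prostaglandin D synthase, a secreted enzyme that also binds small lipophilic molecules and is known from brain membranes, testis and epididymis. Its probe set 102105_f_at had 8.30, 8.25, 8.11 and 8.48 in mice 1 to 4 (8.28 ± 0.15, SD, n = 4), which was 2.02 to 2.30 above the limits. Mouse 4 was highest and mouse 3 lowest. Probe set 92546_r_at had 6.47, 6.10, 6.47 and 6.40 (6.36 ± 0.18), and in mouse 2 it passed the limit by only 0.04. Probe set 92545_f_at, designed from the same transcript record as 92546_r_at, had 5.39, 4.95, 5.29 and 5.45 (5.27 ± 0.22) and stayed under the limit in every mouse.

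The 3 Ptgds probe sets therefore disagreed on whether the gene stood above background, and they did not order the mice alike. Mouse 2 was lowest by 92546_r_at and 92545_f_at, 0.26 and 0.32 below the 4-mouse means, whereas by 102105_f_at it was 0.04 below and mouse 3 was lowest. Mice 1 and 4 were above the mean in all 3. In Affymetrix's naming, the suffix _f_at marks sets whose probes can also read related sequences and _r_at marks sets for which some rules of probe choice were relaxed, and whether that bears on the disagreement was not tested.

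Markers of tissues known for Ptgds were read on the same arrays. Of 6 measured brain and glia genes, 0 lay above the limit on all 4 arrays, with a mean level of 3.51 to 3.60 per mouse. These 6 genes are also among those that set the limit, so this count is partly built in. Of 6 measured epididymis and vas deferens genes, 1 did, namely Cd52 at 11.98 ± 0.11 (SD, n = 4), while the epididymal lipocalin gene Lcn5 had 3.12 ± 0.06. The mean level of that list was 5.37, 5.29, 5.35 and 5.24 in mice 1 to 4. Its lowest mean, in mouse 4, went with a low value of Defb1 there (4.71, mean 5.04), while 2 of the 6 genes were highest in mouse 4. Any part of epididymal RNA in the Ptgds values was not tested. In whole tissue, fewer cells of a type and less RNA per cell cannot be told apart.

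The other terminal synthases lay under the limit. Ptges encodes the microsomal enzyme that makes prostaglandin E2, and its probe set 104406_at had 5.67, 5.70, 5.59 and 5.64 in mice 1 to 4 (5.65 ± 0.05, SD, n = 4). This was the smallest spread of the 13 probe sets, with 0.11 between the highest and lowest mouse. Ptgis encodes prostacyclin synthase, known from endothelium and smooth muscle, and 104538_at had 5.72, 5.62, 5.52 and 5.70 (5.64 ± 0.09). The 8 smooth muscle genes were all highest in mouse 1, with a mean level of 9.14 there against 8.56, 8.72 and 8.63 in mice 2 to 4, and Ptgis was also highest in mouse 1, by 0.08 over its mean. The 8 endothelial genes, 2 of them above the limit, had mean levels of 5.22, 5.22, 5.26 and 5.33 in mice 1 to 4. The mean was highest in mouse 4, where Ptgis was 0.06 over its own mean. Only 3 of the 8 genes were highest in mouse 4, while 3 were highest in mouse 3, where Ptgis was lowest, and 2 in mouse 1. The part of either cell type in these small differences was not tested.

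Tbxas1 encodes thromboxane synthase, known from platelets and macrophages. Its probe set 92387_at had 5.88, 5.63, 5.98 and 5.82 in mice 1 to 4 (5.83 ± 0.15, SD, n = 4) and came within 0.10 of the limit in mouse 3. Its dimmer probe set 162136_r_at had 3.21, 3.01, 2.76 and 3.0 (2.99 ± 0.19). Mouse 3 was thus highest by one set and lowest by the other. Macrophage genes had their highest mean level in mouse 3 as well, at 5.91 against 5.81, 5.80 and 5.6 in mice 1, 2 and 4. Only 5 of the 10 genes peaked in that mouse, while mice 1 and 2 each held the top value of 2 genes. Of the 10, 3 genes (C1qa, C1qc and Cd14) were above the limit on all arrays. C1qa and C1qc peaked in mouse 3, but Cd14 did so in mouse 4. Mast cell genes, 1 of 8 above the limit, also had their highest mean level in mouse 3 (4.44), where 5 of the 8 peaked. The part of either cell type in the Tbxas1 values was not tested.

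Hpgd encodes 15-hydroxyprostaglandin dehydrogenase, the first enzyme of prostaglandin breakdown. Its single probe set 93351_at had 7.04, 7.22, 6.97 and 6.91 in mice 1 to 4 (7.03 ± 0.14, SD, n = 4). Every mouse stood clear of its limit, and the largest margin was 1.16, in mouse 2. A stricter limit was the 95th percentile in place of the 90th (6.56 to 6.71). Above it in all mice stayed 2 of the 13 probe sets, against 1964 of all 12422. These 2 were Hpgd and the brightest Ptgds set. The luminal epithelial genes also had their highest mean level in mouse 2, at 9.14 against 8.92, 8.89 and 8.99 in mice 1, 3 and 4. By gene, 7 of these 10 were highest in mouse 2 and 3 in mouse 4. Their part in the Hpgd values was not tested.

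The receptors for prostaglandin E2 differ in the G proteins they engage: EP1 raises calcium, EP3 mainly lowers cyclic AMP and EP4 raises it. The EP1 gene Ptger1 had 6.42, 6.41, 6.65 and 6.68 in mice 1 to 4 by 99998_at (6.54 ± 0.15, SD, n = 4), which was above the limit by at most 0.57. Mice 3 and 4 lay 0.11 and 0.14 above the mean and mice 1 and 2 lay 0.12 and 0.13 below it. The EP3 gene Ptger3 had 2.93, 2.80, 2.96 and 2.72 by 96588_at (2.85 ± 0.11) and 2.57, 2.59, 2.42 and 2.43 by 96589_at (2.50 ± 0.09). Mouse 3 was highest by the first and lowest by the second, and both sets were over 3 log2 units under the limit. The EP4 gene Ptger4 had 4.28, 4.40, 4.42 and 4.24 by 103362_at (4.33 ± 0.09), also under it.

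In the RefSeq annotation Tbxas1 overlaps Hipk2, whose probe set had 6.90 ± 0.06 (SD, n = 4). The sequences read by the Tbxas1 probes were not examined, so a contribution of the overlapping transcript was not tested.

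The next question was whether any of these genes varied among the 4 mice beyond what probe sets of like signal did. In limma's variance model, the variance of each probe set was set against the prior variance of all probe sets at its signal, and 0 of the 13 passed an adjusted p of 0.05 (Benjamini-Hochberg over 12422 probe sets, lowest adjusted p = 0.973). Over the whole array 0.282% were called, or 35 of 12422. At an unadjusted p under 0.05 stood 0 of the 13, against 5.44% of all probe sets. The largest ratio to the prior SD was 1.74, for Ptgds 92545_f_at (SD 0.22, unadjusted p = 0.0921 from limma's model), followed by 1.70 for Tbxas1 162136_r_at and 1.42 for Ptgds 92546_r_at. The smallest was 0.36, for Ptges. Much of the spread of several sets came from 1 mouse. Without mouse 2 the SD was 0.08 for Ptgds 92545_f_at, 0.04 for Ptgds 92546_r_at, 0.08 for Tbxas1 92387_at and 0.06 for Hpgd. Without mouse 3 it was 0.12 for Tbxas1 162136_r_at and 0.05 for Ptgis, and without mouse 4 it was 0.10 for Ptgds 102105_f_at. These were the changes of more than 1.5 times towards a smaller SD.

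The median SD of the 13 probe sets was 0.14, beside 0.11 over all probe sets, and the median ratio to the prior SD was 1.18, beside 0.93. Between the highest and lowest mouse the 13 differed by 0.11 to 0.51 log2 units, or 1.08-fold to 1.42-fold. The test reached only large differences: in data simulated with the signal and prior of these arrays, tripling the SD of a probe set (3-fold) gave calls for 0% of 200, a 6-fold SD for 58% and a 10-fold SD for 90.5%.

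**Figure D2:**
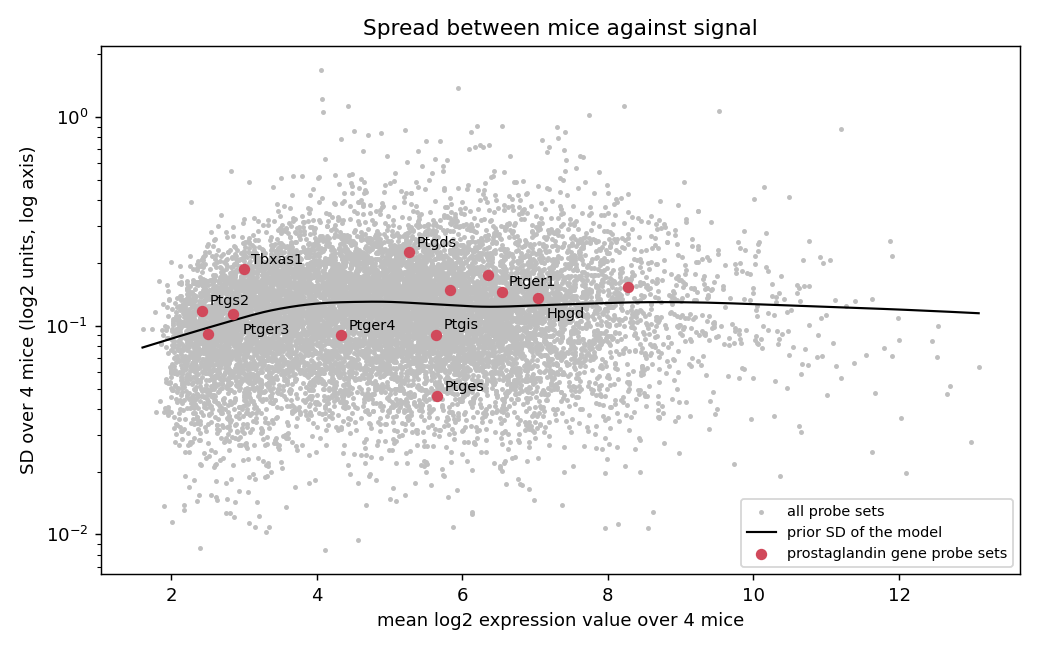
SD over the 4 mice (vertical log axis, log2 units) against mean log2 expression value for all 12422 probe sets (grey), with the prior SD of the model as a line and the 13 prostaglandin gene probe sets in red, the most variable set of each gene being named. The red points lie within the grey cloud, from Ptges at an SD of 0.05 to Ptgds at 0.22.

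The mouse with the highest value differed from probe set to probe set. Mouse 1 was highest in 3 of the 13 probe sets, mouse 2 in 3, mouse 3 in 3 and mouse 4 in 4. Mice 2 and 3 were lowest in 5 each, mouse 4 in 3 and mouse 1 in 0. Over all probe sets mice 1 to 4 were highest in 25.8%, 21.6%, 26.1% and 26.5% and lowest in 20.7%, 36.7%, 22.2% and 20.3%.

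**Figure D3:**
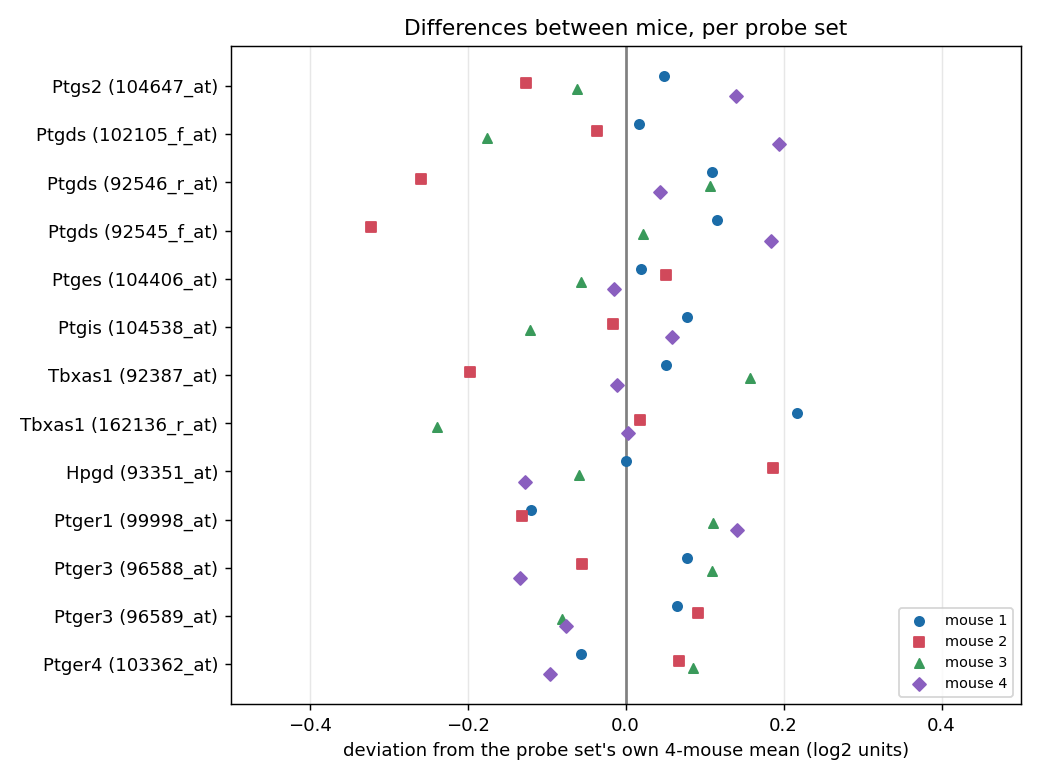
Deviation of each mouse from the probe set's own 4-mouse mean (horizontal axis, log2 units) for the 13 probe sets, with 1 symbol per mouse. The symbols change sides from gene to gene, and also between probe sets of Tbxas1 and Ptger3, where mouse 3 is highest in one set and lowest in the other.

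Likeness of pattern was measured for Ptgds 92546_r_at, which had the largest SD of the 4 probe sets above the limit. This choice and the pattern rest on mouse 2, since without it the set had an SD of 0.04 and 102105_f_at, at 0.19, had the largest. Among 2645 other single-gene probe sets above the limit on all arrays, the 5 with the smallest root mean square difference in their 4 deviations were those of Id1 (0.012 log2 units over 4 mice), Gstm1 (0.018), Sugp2 (0.020), Cant1 (0.023) and Mtcp1 (0.024). Id1 had 6.73, 6.36, 6.70 and 6.65 in mice 1 to 4, lowest in mouse 2 like the Ptgds set and like 36.7% of all probe sets. In all, 29 of the 2645 lay within 0.05 of the Ptgds pattern.

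Around these genes, other steps of eicosanoid metabolism and of signalling below the receptors were read from lists of 45 measured genes. Of these, 14 had a probe set above the background range on all arrays, or 31.1%, against 29.2% of all genes. The count of each list below stands beside the same 29.2%. A gene counted when any of its probe sets passed on all arrays. By limma's variance model 0 of the 62 probe sets of the 45 genes were called, against 0.282% of all probe sets. Their lowest adjusted p was 0.445. At an unadjusted p under 0.05 in that model stood 2 of the 62, against 5.44% of all probe sets.

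Of the phospholipase and arachidonate release genes, 2 of 12 were above the limit. Pla2g12a, a secreted phospholipase A2 gene, had 8.43, 8.79, 8.40 and 9.25 in mice 1 to 4 by 104343_f_at (8.72 ± 0.40, SD, n = 4), highest in mouse 4. It was 1 of the 2 probe sets with an unadjusted p under 0.05 (unadjusted p = 0.00527, adjusted p = 0.445, limma's variance model), and its other probe set stayed at 3.85 ± 0.13. Pla2g1b, the pancreatic type phospholipase gene, had 7.17 ± 0.11. The cytosolic phospholipase gene Pla2g4a, the usual supplier of arachidonate to the cyclooxygenases, had 3.31, 3.21, 3.65 and 3.26 and lay under the limit in all mice.

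Of the genes for further handling of prostaglandins, both measured ones were above the limit. Ptgr1, a reductase of the keto prostaglandins that Hpgd forms and a dehydrogenase of leukotriene B4, had 8.06, 8.25, 7.45 and 7.88 in mice 1 to 4 (7.91 ± 0.34, SD, n = 4). Mouse 3 was lowest. The variance over the 4 mice had an unadjusted p of 0.0124 and an adjusted p of 0.629 in limma's model. Cbr3, a carbonyl reductase gene, had 6.22 ± 0.07. The 3 measured genes of further prostanoid synthesis (Akr1b8, Cbr1 and Ptges2) were not above the limit, and Hpgds was not analysed here.

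Of the 7 further prostanoid receptor genes and their relatives, 1 was above the limit. This was Ptgdr2, a receptor for prostaglandin D2 on T helper cells, eosinophils and basophils, with 6.74, 6.76, 6.81 and 6.87 in mice 1 to 4 (6.80 ± 0.06, SD, n = 4). The EP2 receptor gene Ptger2 had 2.56 ± 0.06, and the prostaglandin F receptor gene Ptgfr had 3.49 ± 0.10 by its brighter probe set. Tbxa2r, the thromboxane receptor gene, exceeded the limit in 2 of 4 mice.

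In the lipoxygenase and leukotriene branch 2 of 8 genes were above the limit. Lta4h, the leukotriene A4 hydrolase gene, had 7.13 ± 0.07 (SD, n = 4), and Aloxe3, an epidermal lipoxygenase gene, had 6.29 ± 0.17 and passed narrowly in mouse 2 at 6.07.

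For signalling below the receptors, 9 of 22 probe sets were above the limit on all arrays, against 23.9% of all probe sets. Of the 13 genes, 7 had such a set, against 29.2% of all genes. They included Gnas, which encodes the stimulatory G protein subunit (11.11 ± 0.13 by its brightest set, SD, n = 4), Gnai2 for an inhibitory subunit (9.99 ± 0.15) and Gna11 for a subunit that raises calcium (7.16 ± 0.12). The protein kinase A genes Prkacb (8.32 ± 0.17), Prkar1a (7.70 ± 0.07) and Prkaca (6.76 ± 0.13) and the arrestin gene Arrb1 (6.67 ± 0.17) were the others. Where a gene had several sets, the brightest is given, and not all sets passed. Gnas 102082_at (mean 4.46) and 92672_at (2.78) passed in 0 of 4 mice, Gna11 102196_at in 2 and Arrb1 162481_f_at in 1. The other Gnai2 sets, at 8.08 and 7.18, passed in all 4. Gnaq, Creb1, Crem, Ppard, Pparg and Prkar2a were under the limit.

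**Figure D4:**
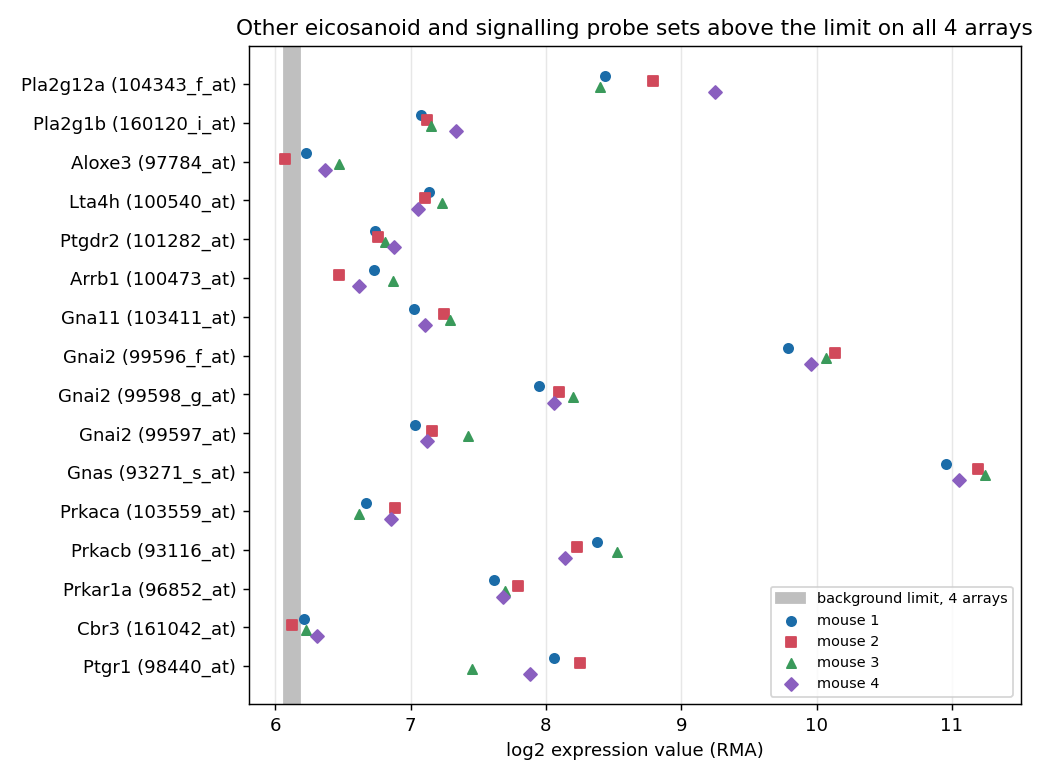
Log2 expression value (horizontal axis) of the 16 probe sets of further eicosanoid and signalling genes that lay above the background limit (grey band) on all 4 arrays, with 1 symbol per mouse. Pla2g12a has its highest value in mouse 4 (9.25) and Ptgr1 its lowest in mouse 3 (7.45), while Cbr3 and Aloxe3 lie close to the band.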

How the data were processed

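The authors deposited 1 log2 value for each probe set and array. RMA is the method that the submitters' processing notes name, and its version is not given in the sources used here. The log2 scale was read from the values. Of 12488 probe sets, 66 array controls were left out. The platform annotation gave 10833 a single gene, 396 several and 1193 none.

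The prostaglandin genes and the lists were chosen with earlier results of these data known. Limma's model was fitted to all 12422 probe sets with trended, robust prior (8.06 degrees of freedom, beside 3 residual), with an upper-tail F test and Benjamini-Hochberg adjustment at 0.05. Named genes were all probe sets of the prostaglandin genes, list genes above the limit or called, the fixed Ptger2, Ptgfr, Hpgds and Pla2g4a, and the 5 nearest in pattern; Tbxa2r, the sets named as under the limit and the marker genes given were named after their values were seen. The number of arrays, 4, limits precision, and p-values describe the spread between these samples. Alternatives covered array scaling, each mouse left out, the prior, filters and the limit. Tests were checked on simulated data, drawn from the fitted model and independent between probe sets. R 4.3.3, limma 3.58.1, Python 3.11.15 and matplotlib 3.10.9 were used.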

Additional observations from a re-analysis of the deposited data

Results flagged for a closer look

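Among 46 probe sets and marker list means, 1 had a mouse far from the others. Gstm1, one of the probe sets nearest in pattern to Ptgds, had 6.49 in mouse 2 against 6.84, 6.81 and 6.78 in mice 1, 3 and 4, a gap of 0.84 of its whole range, above Dixon's critical value for 4 samples. Chance gives such a gap in about 1 in 20 groups, and this set was picked for a low value in mouse 2.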

How the results depend on the processing

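None of the 125 recomputed SDs of the prostaglandin gene probe sets passed the variance test under another scaling, prior, filter, gene average or with a mouse left out (limma, lowest adjusted p = 0.811). Over the whole array the count of variable probe sets, 35, was 17 to 44 with each mouse left out in turn, 23 without mouse 2 and 17 without mouse 4. It was 15 with a non-robust prior, 1 with probe sets above the median signal, 0 with those above the mean background limit and 3 with probe sets averaged per gene; the last 3 settings tested fewer features, and the cause was otherwise not tested. The count above the background range depended on the limit. With the 75th percentile 8 of the 13 probe sets and 6 of the 9 genes were above it, against 5635 of all 12422 probe sets. With each array's median it was also 8 and 6, against 5834 of the 12422. Ptges, Ptgis and Tbxas1 were added in both. Genes of the whole array were not counted at these other limits, so the 6 genes have no share to stand beside. With the 95th percentile 2 probe sets (Ptgds and Hpgd) were above it (1964 of all), so Ptger1 was not. Other scalings and leaving out a mouse kept 4 probe sets and 3 genes. The planned limit from another other-organ list was not run, since no other list was used. Signal over background limits what can be said of the 9 probe sets under the limit. No paired analysis was possible because there is only 1 group.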
